A study of Homo sapiens with 6 samples.

Results

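The comparison described here is SMARCD2 knockdown in cells treated with all-trans retinoic acid (ATRA). It uses 3 of the 6 RNA-seq libraries of the series, chosen by their labels: the library of the control construct and those of 2 short hairpin RNAs against SMARCD2, called hairpin 1 and hairpin 2. All 3 came from NB4, a human acute promyelocytic leukemia line, given ATRA at 1 µM for a time that the sources used here do not state. The other 3 libraries are the same constructs in NB4 cells given the vehicle DMSO. They enter only where a ratio in ATRA is set beside the same ratio in DMSO. Neither the hairpin sequences nor the selection of transduced cells is given in the labels, and nothing says that the libraries came from separate cultures. The p-values below therefore measure only the spread between these libraries, which may be technical.

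BAF, the mammalian SWI/SNF complex, uses ATP to move nucleosomes and so opens chromatin at enhancers and promoters. SMARCD2 is 1 of 3 paralogous subunits, of which a complex carries one, and inherited loss of SMARCD2 is a known cause of neutrophil specific granule deficiency. Neutrophil granules are made in a fixed order during maturation, with azurophil granules at the promyelocyte stage, specific granules next and gelatinase granules later. NB4 cells carry the PML-RARA fusion, which holds them near the promyelocyte stage, and ATRA releases that block and drives them toward granulocytes.

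The ATRA table listed 12838 genes, 537 of them absent from the DMSO table. The control library held 29521141 counts, that of hairpin 1 51324652 and that of hairpin 2 44370146. Each total is the sum of 2 sequencing runs, and run 1 supplied 53.1% of the control counts but 75.9% and 71.4% of the hairpin counts. A difference between the runs can therefore enter the ratios of summed counts. Levels are given as CPM, counts scaled to library size with TMM, which removes differences in composition between libraries. A ratio is the log2 of a hairpin's level over the control's, so that both ratios of a gene share the single control library. Anything particular to that library and the effect of the knockdown cannot be told apart. The test across all genes was edgeR's quasi-likelihood test of the 2 hairpin libraries against the control, in which the spread between the hairpins stands in for the spread of the control.

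SMARCD2 stood below the control with both hairpins, further with hairpin 2. Its level was 117 CPM in the control, 61.3 CPM with hairpin 1 and 34.0 CPM with hairpin 2. The log2 ratio was -0.93 for hairpin 1 (95% counting interval -1.002 to -0.861) and -1.78 for hairpin 2 (-1.869 to -1.693). These exact binomial intervals cover counting error only, and they do not overlap. The fitted log2 fold change was -1.29 ± 0.27 (SE, n = 2 against 1), with an adjusted p of 0.24. The authors' deposited table lists -0.40 for SMARCD2 in ATRA, with an adjusted p of 0.0073. Its fold change was smaller than the fitted one for ENO2 too (-1.17 against -1.69), and whether its values were shrunk toward 0 is not stated. DESeq2 on the summed counts gave -1.295 for SMARCD2 (adjusted p = 0.93). In DMSO the level was 99.9 CPM in the control, 40.8 CPM with hairpin 1 and 26.9 CPM with hairpin 2, so that the control was the highest library in both treatments.

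Of the paralogs, SMARCD3 stood at 12.7 CPM in the control, 7.67 CPM with hairpin 1 and 6.22 CPM with hairpin 2. Both hairpin libraries were below the control (log2 ratios -0.73 and -1.03, adjusted p = 0.24), and in DMSO the ratios were -0.19 and -0.47. SMARCD1 stood at 63.4, 59.2 and 61.7 CPM in the same order, with log2 ratios of -0.10 and -0.04. Across 26 other subunits of BAF and its variants PBAF and ncBAF, 10 were above the control with both hairpins and 10 below, where all genes of the table gave 38% and 38.7%. Their median log2 ratios were 0.01 and -0.02. The ATPase gene SMARCA2 stood at 131, 147 and 174 CPM (0.17 and 0.41), and its alternative SMARCA4 at 152, 155 and 161 CPM (0.02 and 0.08). BCL7A, an accessory subunit, stood at 5.43, 7.12 and 12.3 CPM, so that only hairpin 2 was more than 1.5-fold above the control. None of these subunits passed the test.

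**Figure D1:**
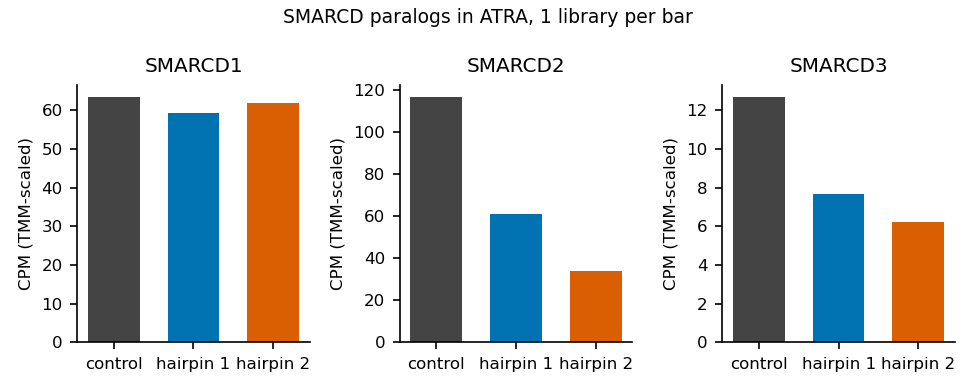
Level (CPM, TMM-scaled, linear axis from 0) of the 3 SMARCD paralogs in ATRA, 1 bar per library with no replicate error. SMARCD2 has 117 CPM in the control against 61.3 and 34.0 CPM in the hairpin libraries, SMARCD3 has 12.7 against 7.67 and 6.22 CPM, and SMARCD1 lies between 59.2 and 63.4 CPM.

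Across all genes, 1 gene passed the test. ENO2, which encodes the glycolytic enzyme enolase 2, fell from 34.0 CPM in the control to 11.2 CPM with hairpin 1 and 9.90 CPM with hairpin 2. The fitted log2 fold change was -1.69 ± 0.12 (SE, n = 2 against 1), with an adjusted p of 0.018. That is 1 of 12837 genes lower (0.00779%) and none higher (0%), while 715 genes were higher and 772 lower at an unadjusted p under 0.05. The next smallest adjusted p was 0.11. In a fit of all 6 libraries without hairpin 1 in ATRA the adjusted p of ENO2 was 0.055, and without hairpin 2 it was 0.058, with log2 fold changes of -1.78 and -1.60. The call was thus lost with fewer libraries, at a fold change of about the same size. By DESeq2, 28 genes were higher and 28 lower, by limma-voom 0 and 1, and the authors' deposited table calls 259 higher and 276 lower. That table may rest on runs taken as samples.

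By ratio alone, both hairpins were above the control for 4878 genes (38%) and below it for 4968 (38.7%). These shares are the background of the list counts given below. For counts at an unadjusted p under 0.05 it is 715 higher and 772 lower of 12837 genes. The median over all genes was -0.0019 for hairpin 1 and -0.00071 for hairpin 2. Both hairpins were at least 1.5-fold above the control for 154 genes (1.2%) and at least 1.5-fold below for 210 (1.64%). Among the 10224 genes averaging 5 CPM or more these counts were 12 (0.117%) and 31 (0.303%). Most of the genes past 1.5-fold were thus of low level, where counting error is largest. Hairpin 2 had 462 genes at least 1.5-fold above the control and 563 below, against 243 and 394 for hairpin 1. With 1 library per hairpin, a link to the lower SMARCD2 level of hairpin 2 was not tested.

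The genes farthest above the control with both hairpins, at 5 CPM or more, included 3 genes of the granule lists. Of these, FCN1 is also on the list of monocyte and macrophage markers. CEACAM8, the granulocyte surface marker CD66b, stood at 5.50 CPM in the control, 13.2 CPM with hairpin 1 and 12.5 CPM with hairpin 2 (log2 ratios 1.26 and 1.18, adjusted p = 0.11). CAMP, the cathelicidin antimicrobial peptide gene, stood at 3.56, 6.99 and 5.71 CPM (0.97 and 0.68), and FCN1, the lectin ficolin-1, at 14.1, 21.5 and 26.7 CPM (0.61 and 0.92). PLD4, an endolysosomal exonuclease gene, stood at 17.4, 29.4 and 59.5 CPM, and the prostaglandin E2 receptor gene PTGER2 at 3.94, 6.11 and 9.61 CPM. For both, hairpin 2 was far above hairpin 1. The other 7 were CLECL1, AK5, VIT, ATL1, the nuclear receptor cofactor gene NRIP1, C10orf128 and the ferroxidase gene HEPH, whose smaller ratio of the 2 lay between 0.59 (HEPH) and 0.72 (CLECL1). None passed the test.

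Below the control with both hairpins, after ENO2, came TREM1, an activating receptor of myeloid cells. It stood at 8.55 CPM in the control, 4.40 CPM with hairpin 1 and 3.78 CPM with hairpin 2 (log2 ratios -0.96 and -1.18). DOCK6, an exchange factor for small GTPases, stood at 29.7, 16.6 and 15.4 CPM (adjusted p = 0.11), the syntaxin gene STX1A at 63.6, 37.4 and 32.9 CPM (adjusted p = 0.11), and the retinol uptake receptor gene STRA6 at 23.9, 13.2 and 13.7 CPM (adjusted p = 0.11). In these 3 genes the hairpins lay close together and well below the control. GATA2, a transcription factor of progenitors and mast cells, stood at 9.40, 5.68 and 3.74 CPM (-0.73 and -1.33). IGFN1 (-0.95 and -1.86), the chaperone gene CLGN (-0.92 and -1.23), the stanniocalcin gene STC2 (-0.70 and -0.93), NDRG1, SMARCD3 and SMARCD2 itself completed the 12.

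**Figure D2:**
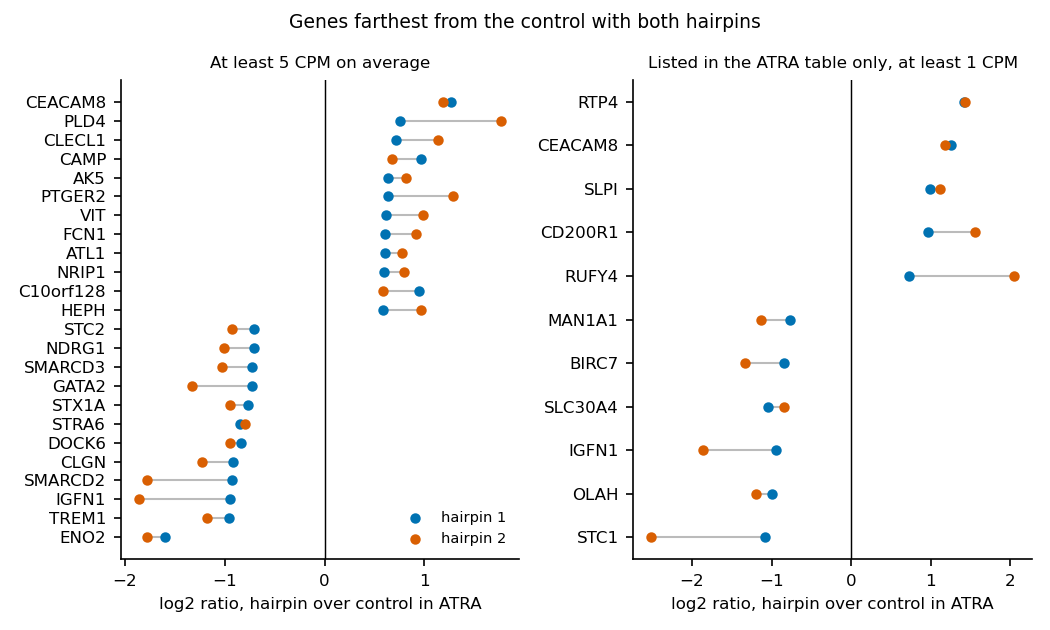
Log2 ratio of each hairpin to the control in ATRA for the 12 genes farthest above and the 12 farthest below the control with both hairpins at a mean of at least 5 CPM (left), and for 5 of the 6 above and the 6 below among genes listed in the ATRA table only at a mean of at least 1 CPM (right). Each gene has 1 point per hairpin joined by a line, the vertical line is the control, and the points were chosen for lying on the same side; ENO2 has the largest smaller ratio, at -1.60 and -1.78, and STC1 the widest gap, at -1.08 and -2.51.

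Of the 537 genes listed only in the ATRA table, 199 were above the control with both hairpins and 199 below, with medians of -0.01 and 0.01. Both hairpins were at least 1.5-fold above for 57 of the 537 and at least 1.5-fold below for 51. They are genes the DMSO table does not list, so that a DMSO ratio was not analysed here. Among those at 1 CPM or more, the interferon-inducible gene RTP4 stood at 0.645 CPM in the control, 1.76 CPM with hairpin 1 and 1.77 CPM with hairpin 2. SLPI, a secreted inhibitor of neutrophil serine proteases, stood at 2.34, 4.68 and 5.11 CPM, and CD200R1, an inhibitory receptor of myeloid cells, at 0.781, 1.55 and 2.33 CPM. RUFY4 stood at 1.49, 2.49 and 6.22 CPM. These 4 genes and CEACAM8 were among the 6 with the largest smaller ratios above the control.

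On the low side, the stanniocalcin gene STC1 stood at 3.36 CPM in the control, 1.58 CPM with hairpin 1 and 0.582 CPM with hairpin 2, and OLAH, a fatty acid synthesis thioesterase, at 2.58, 1.29 and 1.12 CPM. BIRC7, an inhibitor of apoptosis, stood at 6.38, 3.56 and 2.53 CPM, the zinc transporter gene SLC30A4 at 1.73, 0.842 and 0.963 CPM, and the Golgi mannosidase gene MAN1A1 at 3.63, 2.13 and 1.66 CPM. IGFN1 was also in this group. All were below the control by at least 1.5-fold with both hairpins, and none passed the test (adjusted p from 0.27 for IGFN1 to 0.40 for SLC30A4).

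Hypoxia-inducible and glycolytic genes were below the control together. Oxygen-sensing prolyl hydroxylases, EGLN1 among them, mark the HIF alpha subunits for destruction, and when oxygen or the hydroxylases fail, HIF binds a short promoter element and switches on glucose uptake, glycolysis, angiogenic factors and mitophagy genes. Of 35 measured genes of the hypoxia response outside glycolysis, 34 were below the control with both hairpins and 1 above, against 38.7% and 38% of all genes. Their median log2 ratio was -0.27 for hairpin 1 and -0.39 for hairpin 2. Of 23 glycolysis genes, 21 were below with both hairpins and 1 above, with medians of -0.15 and -0.23. Both hairpins were at least 1.5-fold below the control for 5 of the hypoxia genes and 2 of the glycolysis genes. In the edgeR test ENO2 alone passed, and at an unadjusted p under 0.05 there were 25 hypoxia genes and 13 glycolysis genes lower, and 1 and 0 higher. The median over both hairpins for the hypoxia list was -0.33, and it was -0.33 with run 1 alone and -0.31 with run 2 alone.

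The promoter stretches of 3 of these genes are shown because each holds ACGTG, a form of the core of the hypoxia response element. Their knockdown effect also differed between the treatments, as described further on. Shown are the 250 bases before the start site, 5′ to 3′ on the gene's strand, from RefSeq on GRCh38.p14. Matches to ACGTG on either strand are in capitals.
ENO2, chr12:6914330-6914579, plus strand: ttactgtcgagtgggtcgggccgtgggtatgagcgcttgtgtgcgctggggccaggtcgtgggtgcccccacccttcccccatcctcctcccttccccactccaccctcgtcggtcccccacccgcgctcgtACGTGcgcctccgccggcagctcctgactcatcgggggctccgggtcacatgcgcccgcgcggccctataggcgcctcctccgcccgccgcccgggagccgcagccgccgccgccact
BNIP3, chr10:131981924-131982173, minus strand: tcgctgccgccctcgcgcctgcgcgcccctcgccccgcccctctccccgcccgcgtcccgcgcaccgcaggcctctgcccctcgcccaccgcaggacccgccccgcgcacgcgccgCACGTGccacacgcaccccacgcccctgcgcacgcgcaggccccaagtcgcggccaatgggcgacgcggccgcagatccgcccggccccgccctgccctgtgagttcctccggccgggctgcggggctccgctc
GBE1, chr3:81761646-81761895, minus strand: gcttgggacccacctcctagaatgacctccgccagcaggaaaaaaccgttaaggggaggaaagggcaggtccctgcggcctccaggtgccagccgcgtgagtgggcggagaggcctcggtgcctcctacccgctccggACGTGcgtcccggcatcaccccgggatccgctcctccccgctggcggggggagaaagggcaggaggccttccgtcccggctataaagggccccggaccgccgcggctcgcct
The match starts 118 bases before the start site in ENO2 and 112 before it in GBE1. In BNIP3 a match on each strand overlaps in the palindrome CACGTG, which is also an E-box, the site of MYC and related factors. The same windows of ADM, PFKFB4 and SPP1 hold no match to ACGTG, which says nothing of HIF binding in them or elsewhere. The form GCGTG, which the windows of ADM and PFKFB4 hold, was not counted. ACGTG is in 18.7% of all 27305 promoter windows and in 23% of the 9941 matched to genes of the ATRA table. It is in 18 of 29 matched hypoxia genes (62.1%) and 8 of 21 matched glycolysis genes (38.1%). A match is a string of letters and not a measured binding site, and the hypoxia list was itself made of genes known to respond to HIF.

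Among glucose transport and glycolysis genes, the high-affinity glucose transporter gene SLC2A3 stood at 258 CPM in the control, 178 CPM with hairpin 1 and 133 CPM with hairpin 2. ALDOC, an aldolase, stood at 56.5, 35.6 and 37.3 CPM (adjusted p = 0.11), and PFKFB4, an enzyme that sets glycolytic flux, at 112, 79.6 and 74.3 CPM (adjusted p = 0.11). The lactate dehydrogenase gene LDHA stood at 588, 504 and 434 CPM. Each had the control as its highest library. Among the enzymes of the lower part of the pathway, where enolase also acts, GAPDH (1908, 1897 and 1839 CPM) and PGAM1 (1225, 1224 and 1204 CPM) lay close to the control. ENO1, the main enolase gene, stood lower with the hairpins, at 1275, 1117 and 1054 CPM, as did the pyruvate kinase gene PKM, at 1361, 1216 and 1097 CPM. These 4 were chosen after their values were seen. HK3, the hexokinase of mature myeloid cells, was the 1 gene above the control (177, 201 and 182 CPM).

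Of the hypoxia genes outside glycolysis, NDRG1 stood at 123 CPM in the control, 75.0 CPM with hairpin 1 and 60.8 CPM with hairpin 2 (log2 ratios -0.71 and -1.01, adjusted p = 0.11). ADM, which encodes the vasodilator peptide adrenomedullin, stood at 34.0, 21.3 and 20.6 CPM (adjusted p = 0.11). VEGFA, the angiogenic growth factor, stood at 287, 204 and 177 CPM (adjusted p = 0.14). In these 3 genes both hairpin libraries were well below the control. The mitophagy receptor gene BNIP3 stood at 186, 138 and 122 CPM, the mTOR inhibitor gene DDIT4 at 39.0, 25.3 and 21.6 CPM, and the glycogen branching enzyme gene GBE1 at 108, 85.8 and 81.1 CPM. In the sensor and the factor themselves the ratios were near 0, with HIF1A at 201, 193 and 186 CPM and EGLN1 at 102, 98.7 and 99.1 CPM. PPFIA4 was the only one of the 35 above the control, at 135, 155 and 176 CPM.

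**Figure D3:**
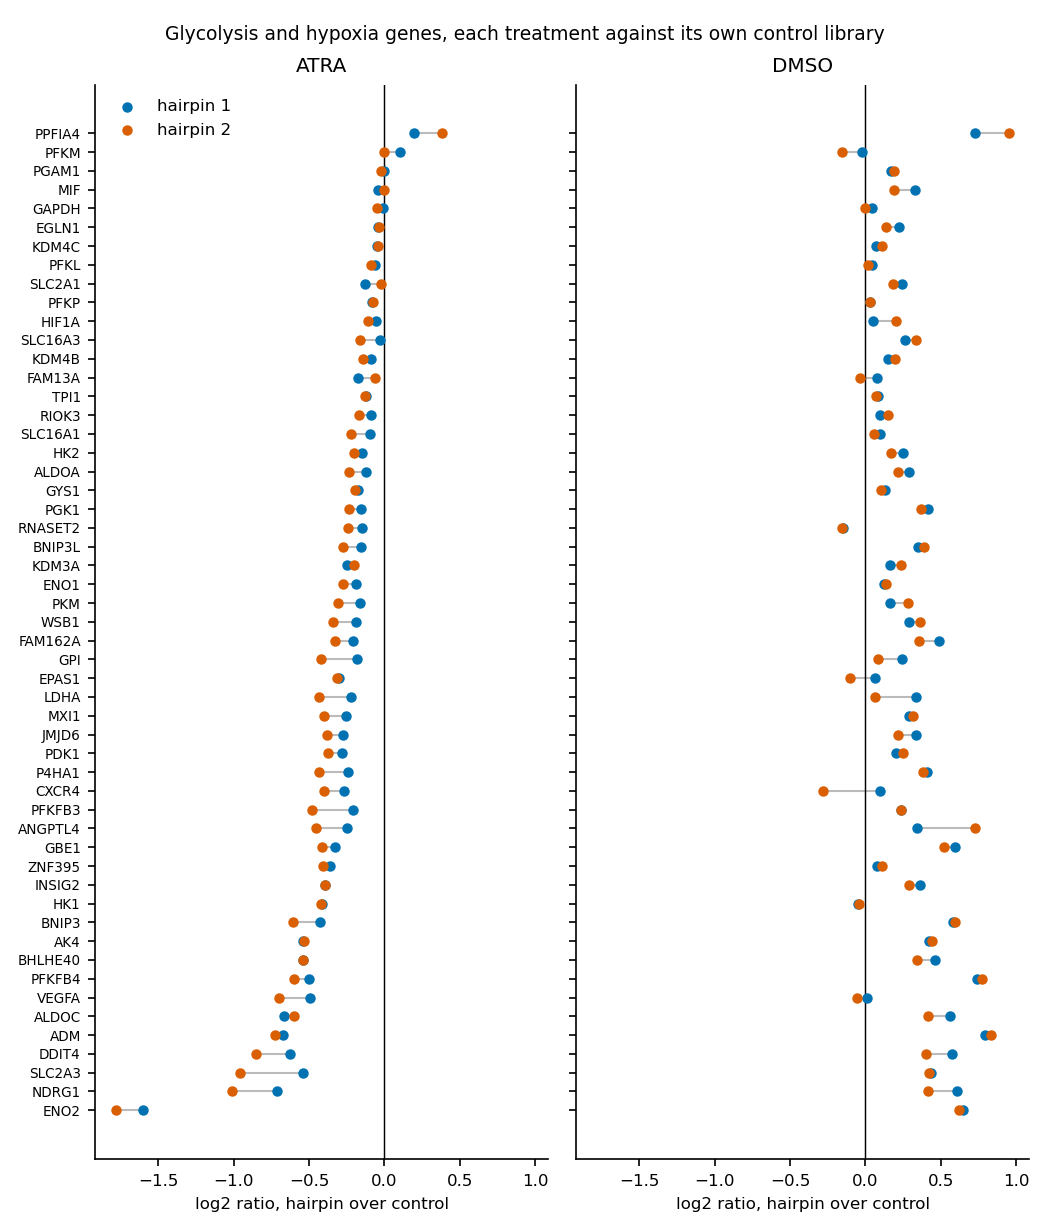
Log2 ratio of each hairpin to its own control library, in ATRA (left) and in DMSO (right), for glycolysis and hypoxia genes in both tables with a mean of at least 5 CPM in ATRA, 1 row per gene in the order of the fitted ATRA fold change. Most points lie left of the control line in ATRA and right of it in DMSO, with ENO2 at -1.60 and -1.78 in ATRA and at 0.64 and 0.62 in DMSO.

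In DMSO the same genes lay on the other side of their control. Of the 34 hypoxia genes in both tables, 28 were above the DMSO control with both hairpins and 1 below, with medians of 0.29 and 0.27. Of 22 glycolysis genes 19 were above and 2 below, with medians of 0.24 and 0.18. ENO2 stood at 27.2 CPM in the DMSO control, 42.5 CPM with hairpin 1 and 41.8 CPM with hairpin 2, ADM at 11.5, 19.9 and 20.5 CPM, and PFKFB4 at 33.9, 56.7 and 57.9 CPM. BNIP3 stood at 181, 271 and 273 CPM, and GBE1 at 126, 191 and 181 CPM. In each of the 5 genes the DMSO control was the lowest of its 3 libraries and the ATRA control the highest. VEGFA did not share this, at 233, 234 and 225 CPM in DMSO. A change of side between the treatments was not limited to these lists. The immediate early, chemokine, gelatinase granule and DNA replication lists changed side too, as given below.

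The difference between the knockdown effects was tested as an interaction in a fit of all 6 libraries, over the 12301 genes in both tables. It was negative past the threshold for 6 genes (0.0488%) and positive for 0 (0%), with 539 and 440 at an unadjusted p under 0.05. The interaction on the log2 scale was -2.32 ± 0.15 for ENO2 (adjusted p = 0.0053), -1.30 ± 0.11 for PFKFB4 (0.018) and -1.50 ± 0.14 for ADM (0.037). It was -1.10 ± 0.12 for BNIP3 (0.045) and -0.92 ± 0.10 for GBE1 (0.045). The sixth gene, SPP1, encodes the secreted phosphoprotein osteopontin and is in none of the lists. It stood at 210, 157 and 146 CPM in ATRA and at 2.51, 5.33 and 5.43 CPM in DMSO, with an interaction of -1.56 ± 0.16 (adjusted p = 0.044). BNIP3, GBE1 and SPP1 are named because they passed this test and not by the rule for named genes. Among the listed and named genes, those next to the threshold were ALDOC (-1.12 ± 0.13, adjusted p = 0.062), DOCK6 and STX1A (both 0.071), DDIT4 (0.074), NDRG1 (0.079) and BHLHE40 (0.094). Without any 1 hairpin library ENO2 still passed (adjusted p from 0.027 to 0.044), as did PFKFB4 without hairpin 1 in DMSO (0.047) but not without another library. The other 4 genes did not pass in any of these fits (0.052 to 0.23). Their interactions stayed at -1.49 to -1.54 for ADM, -1.03 to -1.19 for BNIP3, -0.89 to -0.97 for GBE1 and -1.52 to -1.62 for SPP1. Each side of this contrast has 1 control library, so that a shift of these genes in either control cannot be told apart from a change in the knockdown effect.

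Genes of the azurophil granule, the first to form, were mostly above the control. Of 21 measured genes 15 were above with both hairpins and 3 below, with medians of 0.21 and 0.25. None passed the test, and 11 were higher at an unadjusted p under 0.05, as were 715 of all 12837 genes. The proteinase 3 gene PRTN3 stood at 222 CPM in the control, 333 CPM with hairpin 1 and 393 CPM with hairpin 2 (log2 ratios 0.58 and 0.82, adjusted p = 0.13). MPO, myeloperoxidase, stood at 4116, 5009 and 5513 CPM (0.28 and 0.42), and AZU1, azurocidin, at 75.2, 89.4 and 107 CPM. The cathepsin G gene CTSG stood at 2.82, 3.68 and 5.17 CPM. In all 4 of these serine protease family and peroxidase genes the order was control, hairpin 1, hairpin 2. The defensin genes DEFA1 (910, 1558 and 1143 CPM) and DEFA1B (513, 888 and 698 CPM) are near-identical copies whose reads cannot be assigned with certainty, and in them hairpin 1 was the highest. Lysosomal hydrolases on the list lay near the control, with GUSB at 244, 250 and 243 CPM. In DMSO the list was mostly above its control too, 13 of 20 genes with both hairpins and 3 below (medians 0.10 and 0.11).

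The ribonuclease genes of this list, RNASE2 (24.1, 33.5 and 40.4 CPM) and RNASE3 (6.01, 8.87 and 12.6 CPM), are also markers of eosinophils. Of 14 measured eosinophil, basophil and mast cell markers 9 were above the control with both hairpins and 3 below, with medians of 0.07 and 0.48. Their summed level was 862 CPM in the control, 887 CPM with hairpin 1 and 1309 CPM with hairpin 2. The sum was highest with hairpin 2, with the major basic protein gene PRG2 at 528, 554 and 862 CPM and the Charcot-Leyden crystal gene CLC at 40.6, 52.8 and 82.5 CPM. The mast cell and basophil genes GATA2 and HDC (7.36, 5.05 and 4.43 CPM) went the other way. The part of these markers in the azurophil result was not tested, and PRTN3, MPO and AZU1 are not among them.

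Specific granule genes, those lacking in patients without SMARCD2, lay on both sides of the control. Of 25 measured genes 12 were above the control with both hairpins and 5 below, with medians of 0.13 and 0.08. None passed the test, with 8 higher and 1 lower at an unadjusted p under 0.05. Both hairpins were at least 1.5-fold above for 4 of them (against 1.2% of all genes) and at least 1.5-fold below for 0 (against 1.64%). However, 12 of the 25 are listed only in the ATRA table, where 57 of 537 genes were as far above and 51 as far below. The 4 above were CEACAM8, SLPI, CAMP and CRISP3 (0.272, 1.58 and 0.627 CPM). The adhesion molecule gene CEACAM1 stood at 90.6, 131 and 141 CPM (0.53 and 0.64, adjusted p = 0.11), and the collagenase gene MMP8 at 21.8, 29.1 and 26.4 CPM. The lactoferrin gene LTF, the classic marker of these granules, stood at 2.38, 4.66 and 2.28 CPM, so that hairpin 1 was above the control and hairpin 2 level with it. The acute-phase glycoprotein genes ORM1 (18.9, 12.6 and 6.18 CPM) and ORM2 (3.26, 2.45 and 1.01 CPM), whose reads can be shared, were below the control with both. With run 2 alone the median over both hairpins was 0.08, against 0.15 with both runs.

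**Figure D4:**
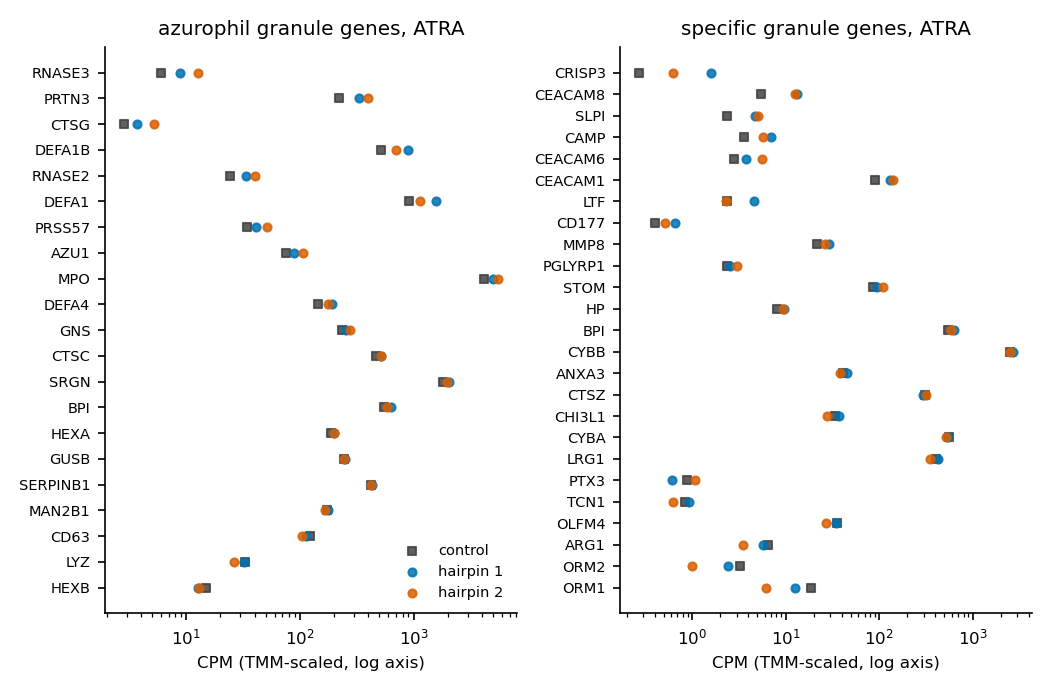
Level (CPM, TMM-scaled, log axis) of azurophil granule genes (left) and specific granule genes (right) in ATRA, with a square for the control and a circle for each hairpin, 1 library per point, in the order of the fitted fold change. The square lies left of both circles for PRTN3 (222 against 333 and 393 CPM) and CEACAM8 (5.50 against 13.2 and 12.5 CPM) and right of both for ORM1 (18.9 against 12.6 and 6.18 CPM).

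Later maturation genes were more often below the control than above it, by small ratios at the median. Of 16 gelatinase granule and secretory vesicle genes 9 were below with both hairpins and 4 above, with medians of -0.05 and -0.17. The one gene at least 1.5-fold above with both hairpins was FCN1, given above, and 0 were as far below. The gelatinase gene MMP9 stood at 56.8, 49.4 and 50.6 CPM and the urokinase receptor gene PLAUR at 55.05, 43.7 and 37.3 CPM, while the integrin gene ITGAM, the CD11b chain, stood at 436, 455 and 442 CPM. Of 10 genes of the phagocyte NADPH oxidase, which makes the respiratory burst, 8 were below with both hairpins and none above. Their medians were only -0.02 and -0.09. The flavocytochrome gene CYBB stood at 2511, 2721 and 2492 CPM, and NCF1, which has near-identical pseudogenes, at 3089, 2512 and 2298 CPM. The Fc receptor gene FCGR3B, whose reads can be shared with FCGR3A, stood at 10.7, 9.20 and 4.43 CPM, with hairpin 2 alone far below. None of the genes on these lists passed the test. In DMSO 8 of 11 gelatinase granule and secretory vesicle genes were above with both hairpins and 2 below (medians 0.12 and 0.29). Of the 10 oxidase genes 4 were above in DMSO and 3 below.

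Regulators of granulocyte maturation were mixed. CEBPE, the transcription factor that switches on specific granule genes, stood at 428 CPM in the control, 430 CPM with hairpin 1 and 431 CPM with hairpin 2 (fitted log2 fold change 0.01 ± 0.06). The CEBPA level was 25.2, 28.5 and 30.0 CPM, that of GFI1 58.5, 65.4 and 60.0 CPM, and that of SPI1 (PU.1) 389, 355 and 340 CPM. CEBPB, which takes over from CEBPA late in maturation and in emergency granulopoiesis, stood at 133, 97.1 and 86.1 CPM (-0.46 and -0.63, adjusted p = 0.15). Among 31 myeloid transcription factors 13 were above with both hairpins and 14 below. At an unadjusted p under 0.05 there were 3 higher and 9 lower, and 1 was at least 1.5-fold below with both hairpins and 0 above. None passed the adjusted test.

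Retinoic acid response genes lay near the control at the median. Of 29 retinoic acid response genes 9 were above with both hairpins and 15 below, with medians of -0.04 and -0.06. At an unadjusted p under 0.05, 1 was higher and 5 lower, where all 12837 genes gave 715 and 772. Both hairpins were at least 1.5-fold below for 2 of the 29 (against 1.64% of all genes) and as far above for 0. None passed the adjusted test. The retinoic acid hydroxylase gene CYP26A1 stood at 224, 203 and 216 CPM and the transglutaminase gene TGM2 at 3309, 3672 and 2932 CPM. Away from this were STRA6, BHLHE40 (56.2, 38.7 and 38.7 CPM) and ID1 (11.1, 7.18 and 4.61 CPM), all below, and SIGLEC1 (298, 387 and 419 CPM, adjusted p = 0.18), above. BHLHE40 is also on the hypoxia list. In DMSO 13 of 26 retinoic acid response genes were above with both hairpins and 5 below (medians 0.12 and 0.13).

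Growth genes were slightly above the control. Of 32 DNA replication genes 27 were above with both hairpins and 1 below, with medians of 0.10 and 0.24. The ribonucleotide reductase gene RRM2 stood at 219, 264 and 279 CPM, the licensing factor gene CDT1 at 146, 172 and 183 CPM, and the helicase gene MCM4 at 131, 148 and 175 CPM. In all 3 the order was control, hairpin 1, hairpin 2, and the ratios were under 0.5. In DMSO the list lay on the other side, with 2 of 32 above and 24 below (medians -0.08 and -0.09). Of 30 mitosis genes 21 were above in ATRA and 4 below, with medians of 0.10 and 0.09, and the proliferation marker gene MKI67 stood at 305, 413 and 411 CPM (adjusted p = 0.13). The mitosis genes were above in DMSO as well, 26 of 30 with both hairpins and 0 below (medians 0.12 and 0.13). Of 31 MYC and ribosome biogenesis genes 24 were above and 5 below (0.07 and 0.08), with MYC itself at 184, 206 and 223 CPM. In DMSO 11 of these 31 were above and 9 below. No gene of the 3 lists passed the test. The sign of each list's median was the same with TMM, DESeq2's size factors and total counts. These scalings were too alike to change it, with TMM factors of 0.995 to 1.01. The DNA replication median over both hairpins was 0.1768, 0.1766 and 0.181 in that order.

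Genes of the ATF4 pathway, immediate early genes and chemokine genes were more often below the control than above it, while the unfolded protein and heat shock lists were close to even. The ATF4 pathway raises amino acid supply when translation is curbed, and of 26 of its genes 20 were below with both hairpins and 3 above, with medians of -0.11 and -0.17. The pseudokinase gene TRIB3 stood at 198, 138 and 103 CPM, ATF5 at 75.0, 50.1 and 45.4 CPM (adjusted p = 0.11) and STC2 at 20.9, 12.8 and 10.9 CPM, while ATF4 itself stood at 454, 443 and 422 CPM. The control was the highest library in each of these 3 targets, and ATF5 was below in DMSO too (log2 ratios -0.50 and -0.53). Of 26 immediate early genes 15 were below and 4 above, with JUN at 28.7, 18.4 and 18.1 CPM and EGR1 at 47.1, 34.3 and 28.2 CPM. Of 28 chemokine and cytokine genes 16 were below and 9 above. The chemokine gene CCL5 stood at 167, 115 and 102 CPM (adjusted p = 0.11), the cytokine gene IL1B at 21.6, 15.2 and 14.7 CPM, and HGF at 7.87, 10.8 and 14.1 CPM. Of 20 genes of ER chaperones and the unfolded protein response 9 were above and 7 below (medians 0.06 and 0.0015), with 2 higher and 0 lower at an unadjusted p under 0.05. Of 13 heat shock genes 5 were above and 6 below (medians -0.01 and -0.01). No gene of these lists passed the test. In DMSO 18 of 25 immediate early genes were above their control with both hairpins and 3 below (medians 0.23 and 0.36). Of 20 chemokine and cytokine genes 10 were above in DMSO and 2 below (0.09 and 0.21). Of 26 ATF4 pathway genes 6 were above in DMSO and 16 below (-0.05 and -0.07).

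**Figure D5:**
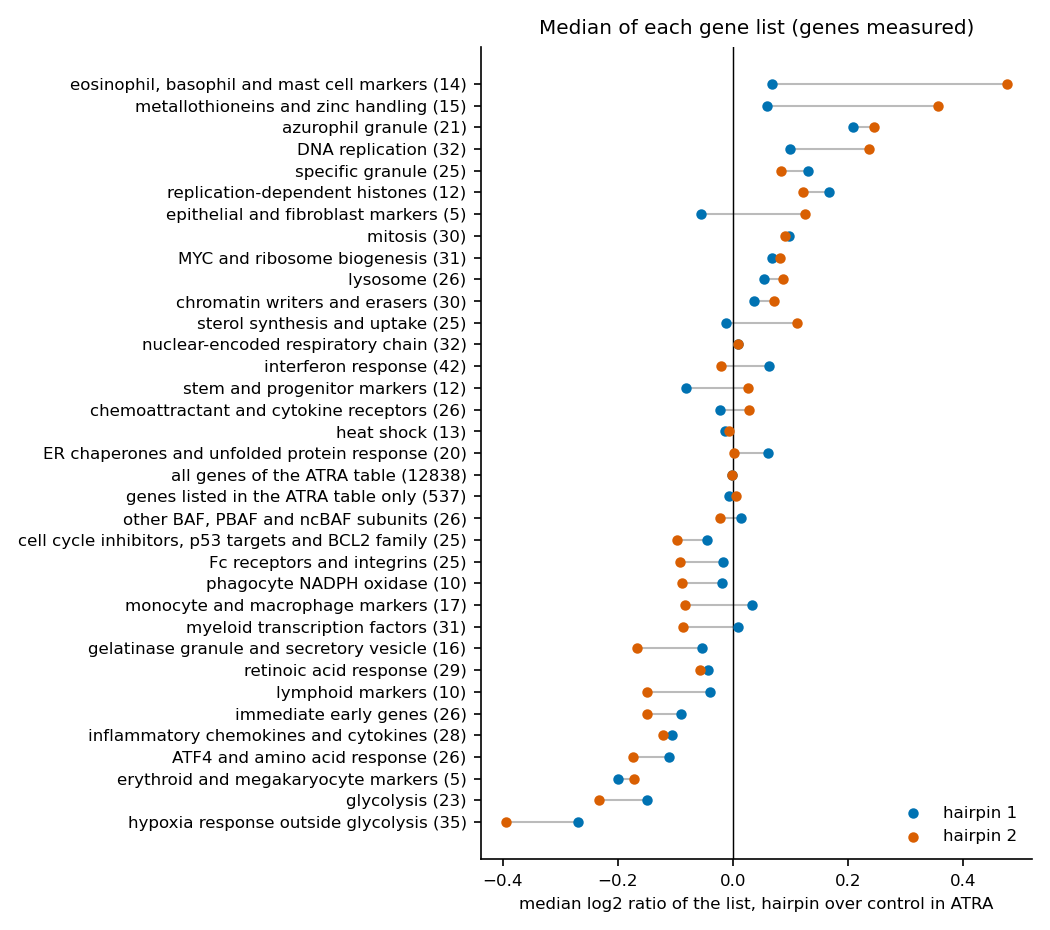
Median log2 ratio to the control in ATRA over each gene list, 1 point per hairpin joined by a line, with the number of measured genes in brackets and all genes of the table for comparison at -0.0019 and -0.00071. The SMARCD paralogs, which hold the targeted gene, and the promyelocyte markers (0.27 and 0.47) are not drawn. Of the lists drawn, the hypoxia list lies lowest (-0.27 and -0.39). Lists above 0 with both hairpins include the eosinophil, basophil and mast cell markers (0.07 and 0.48) and the metallothionein and zinc list (0.06 and 0.36). The azurophil granule (0.21 and 0.25) and DNA replication (0.10 and 0.24) lists lie above 0 as well.

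Markers of the labelled cell type were present. Of 7 promyelocyte markers 6 were listed, and ELANE was not. The 6 summed to 5094 CPM in the control, 6103 CPM with hairpin 1 and 6575 CPM with hairpin 2, most of it MPO. The G-CSF receptor gene CSF3R stood at 626, 608 and 500 CPM. Of 18 erythroid and megakaryocyte markers 5 were listed, summing to 37.2, 27.1 and 31.9 CPM, and of 17 lymphoid markers 10 were listed, summing to 112, 108 and 104 CPM. Of 12 epithelial and fibroblast markers 5 were listed, at 50.3, 48.7 and 43.4 CPM. The sums of these 3 lists thus lay below the control in the hairpin libraries. The monocyte and macrophage markers summed to 1376, 1426 and 1266 CPM, with CD14 at 3.80, 3.74 and 5.08 CPM. In bulk RNA a change in the share of cells of a type and a change in RNA per cell cannot be told apart.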

How the data were processed

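Libraries were grouped by their titles. A GeneJET kit for RNA and a NEBNext Ultra kit for libraries were used, per the labels' protocols, and the series description gives 2 technical sequencing runs per sample. The submitters' processing notes name bcl2fastq, STAR, Picard 2.5.0, DESeq2 and the build GRCh37.p13, with no roles. Neither the counting of reads per gene nor its use of strand is stated in the sources used here. Deposited by the authors were raw counts per gene, 2 columns per library in 1 table per treatment, with a log2 fold change, a p-value and an adjusted p-value of their own, per the file headers. The 12 normalized columns were not used. Genes of low count are absent from each table by a filter that is not stated.

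Counts of the 2 runs were summed and never counted as replicates (chi-square per degree of freedom between runs 4.89 to 6.44). TMM factors were 0.995 to 1.01. Ratios add 0.5 counts. The fit of the 3 ATRA libraries used filterByExpr, TMM and edgeR 4.0.16 (R 4.3.3), with p-values adjusted by Benjamini-Hochberg over all genes fitted and 0.05 as the threshold. It has 1 residual degree of freedom, from the spread between the hairpins. The interaction used 4 groups and 6 libraries (2 residual degrees of freedom). A standard error is the size of the log2 fold change over the square root of its F statistic. The fits were tested on simulated data. Alternatives were limma-voom (limma 3.58.1), DESeq2 1.42.0, other scalings, filters, pseudocounts, single runs, a replicate block and libraries left out. Promoters came from RefSeq on GRCh38.p14, matched by symbol.

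Named genes were the 12 above and 12 below with the largest smaller ratio at 5 CPM or more, 6 and 6 of the ATRA-only genes at 1 CPM or more, those past the threshold, up to 4 per list of the 34 lists, and chosen granule genes and regulators. Of these, 1 ATRA-only gene is not reported here. The comparison, the lists and this rule were chosen with earlier results of these data known.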

Additional observations from a re-analysis of the deposited data

Results flagged for a closer look

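The knockdown effect of 6 genes differed between ATRA and DMSO in the interaction test of the 6-library edgeR fit, lower in ATRA each time. The difference of log2 fold changes was -2.32 for ENO2 (adjusted p = 0.0053), -1.56 for SPP1 (0.044) and -1.50 for ADM (0.037). It was -1.30 for PFKFB4 (0.018), -1.10 for BNIP3 (0.045) and -0.92 for GBE1 (0.045). In all 6 both hairpins lay below the ATRA control and above the DMSO control, and each treatment has 1 control library.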

How the results depend on the processing

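Counts of genes past the threshold depended on how the spread was estimated. For knockdown in ATRA, edgeR called 0 higher and 1 lower, and so did limma-voom, total counts, DESeq2's size factors, both other filters and the 6-library fit. DESeq2 called 28 and 28, run 1 alone 2 and 17, and run 2 alone 201 and 233, where the prior degrees of freedom were infinite. Leaving out a hairpin library gave 0 and 0. For the interaction, edgeR called 0 and 6 and DESeq2 1 and 47, and leaving out a library gave 1 to 2 lower. Both hairpins were at least 1.5-fold above the control for 249 genes with run 2 alone and 73 with a pseudocount of 5 counts, against 154. At 2-fold, 70 were above with run 1, 103 with run 2 and 15 with a pseudocount of 5, against 41, and 74 were below with run 1, against 46. The replicate block, by hairpin number over both treatments, gave 149 higher and 199 lower, and 16 and 113 for the interaction. The numbers name the same hairpins in both treatments but not shared cells, with only 2 pairs, and across genes the difference between the hairpins correlated between the treatments at 0.22.

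The fitted fold change of 12 named genes changed sign under at least 1 alternative, 15 values in all. With run 1 alone CD177 stood at -0.42, CEBPE at -0.054 and TCN1 at 0.78. With run 2 alone ANXA3 stood at -0.049, BLNK at -0.057, CEBPE at -0.045, EPCAM at -0.069, HSPB1 at 0.013 and PTX3 at 0.26. Leaving out hairpin 1 or hairpin 2 gave -0.084 and 0.13 for ANXA3, -0.27 and 0.14 for CHI3L1, 0.043 and -0.070 for CTSZ, -0.0092 and 0.12 for CYBB, -0.21 and 0.061 for LRG1, and 0.29 and -0.54 for PTX3. The cause was not tested. Run 1 supplied a smaller share of the control (53.1%) than of the hairpin libraries (75.9% and 71.4%), so that a difference between runs can enter summed values. PRTN3 stood at 0.71 with the runs summed, outside its values of 0.66 with run 1 and 0.60 with run 2. Which of depth, the mix of runs, the single control library and the spread between the hairpins limits these tests most was not tested.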

Other observations

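Interferon, metallothionein and sterol genes had members above the control in ATRA. Of 42 interferon response genes 20 were above with both hairpins and 8 below, where all genes gave 38% and 38.7%. The medians of this list were 0.06 and -0.02. IFI27 stood at 92.8 CPM in the control, 137 CPM with hairpin 1 and 149 CPM with hairpin 2 (adjusted p = 0.11), IFI6 at 1533, 1940 and 1980 CPM and SAMD9 at 521, 643 and 643 CPM, while MX1 stood at 108, 110 and 95.7 CPM. Of 15 metallothionein and zinc handling genes 10 were above and 0 below (0.06 and 0.36). Metallothioneins bind zinc and copper, and MT1F stood at 5.19, 7.61 and 11.3 CPM and MT1G at 0.984, 1.31 and 2.84 CPM, with reads that paralogs can share. MT1A (38.9, 49.5 and 68.3 CPM) and MT2A (37.9, 48.1 and 66.05 CPM) had nearly equal levels in every library. Of 25 sterol synthesis and uptake genes 12 were above and 5 below (-0.01 and 0.11), with the lanosterol synthase gene LSS at 73.0, 90.1 and 112 CPM. By edgeR, 0 of the genes on the 3 lists passed the threshold. At an unadjusted p under 0.05, 8 interferon, 3 metallothionein and zinc, and 4 sterol genes were higher, where all 12837 genes gave 715. These lists were above the control in DMSO as well. There 33 of 41 interferon genes were above with both hairpins and 1 below (medians 0.12 and 0.455). The metallothionein and zinc list had 12 of 15 above and 1 below (0.25 and 0.38), and the sterol list 18 of 25 and 3 (0.21 and 0.19).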
